A study of Mus musculus with 10 samples.

Results

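Synaptotagmins are membrane proteins of vesicles and other trafficking organelles, and 10 of their genes were examined here across the cell types of the mouse medial prefrontal cortex. The 10 genes (Syt1, Syt2, Syt4, Syt5, Syt6, Syt7, Syt10, Syt11, Syt13 and Syt17) were taken by gene symbol from the deposited gene lists and make up 10 of the 30406 genes shared by all 10 libraries. The data are droplet single-cell RNA-seq libraries of the 10x Genomics type, in which each captured transcript carries a molecular identifier (UMI) that is counted.

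The study compared male C57BL/6N mice over 2 months old by their place in a social hierarchy, ranked in the tube test, a contest in which a mouse pushes its opponent backwards out of a tube. Rank 1 mice were the dominants of their groups (5 libraries) and rank 4 mice the subordinates (5 libraries), and the labels name no transgene and no drug for either group. Tissue punches were taken 1 day after the last tube test, and each library pools cells of 2 to 3 mice, so that a library and not a mouse is the unit of replication. Cells were dissociated with papain before capture, and RNA set free in such a step can enter droplets of any cell type.

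The deposited matrices held 64937 barcodes with 4442750 to 29278466 UMIs per library, and 45864 cells passed the filters. Libraries numbered 1 to 3 of each rank came from Cell Ranger version 3.1.0 and those numbered 4 and 5 from version 4.0.0, per the file headers, and member levels differed between these sets. The sets also differ in gene list, and no label says what else differs between them. Average levels below were therefore taken within each version first and then over both, unless called plain means. Medians and ranges are over single libraries, more of which are of version 3.1.0, so they are not the same measure as the averages. Pairs of libraries within version 3.1.0 shared 6 to 104 cell barcodes (at most 1.70% of the smaller library) and pairs within 4.0.0 shared 7 to 44, whereas pairs from different versions shared 0 to 4. The classes named from their markers were excitatory and inhibitory neurons, astrocytes, 3 stages of the oligodendrocyte lineage, microglia, perivascular macrophages and 4 vascular or meningeal types.

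Most synaptotagmins have a pair of C2 domains, which in some members bind calcium and membrane lipids. Syt1 and Syt2 are the fast calcium sensors that trigger transmitter release together with the SNARE proteins, and Syt7 is a slower, high-affinity sensor linked to facilitation and asynchronous release. Syt4, Syt11 and Syt13 lack part of the residues that coordinate calcium, and Syt10 is known as a sensor for secretion of growth factors from neurons.

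Positions are those of GENCODE M21 on GRCm38, the assembly also called mm10, the build in the submitters' processing notes. Syt2 lies on the plus strand at chr1:134646677-134762593, Syt6 on the plus strand at chr3:103575231-103645569 and Syt10 on the minus strand at chr15:89782393-89841860. The sequences just before their annotated first exons are shown for 3 members whose levels differ widely between neuron subclasses, each 5′ to 3′ on the gene's own strand, from RefSeq's GRCm38.p6 promoter table, at chr1:134646362-134646611, chr3:103574995-103575230 and chr15:89841861-89842110. Capitals mark the GC box GGGCGG and the E-box CAGCTG, searched on both strands.
Syt2: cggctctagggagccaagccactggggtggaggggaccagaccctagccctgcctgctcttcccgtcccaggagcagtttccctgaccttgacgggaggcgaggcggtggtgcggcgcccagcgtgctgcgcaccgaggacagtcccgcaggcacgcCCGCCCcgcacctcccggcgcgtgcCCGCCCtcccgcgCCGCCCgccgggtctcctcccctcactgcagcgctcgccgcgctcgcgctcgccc
Syt6: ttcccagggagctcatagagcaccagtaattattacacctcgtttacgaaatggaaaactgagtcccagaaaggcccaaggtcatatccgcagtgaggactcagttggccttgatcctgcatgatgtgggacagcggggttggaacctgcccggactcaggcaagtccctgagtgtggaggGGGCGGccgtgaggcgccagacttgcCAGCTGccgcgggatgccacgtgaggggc
Syt10: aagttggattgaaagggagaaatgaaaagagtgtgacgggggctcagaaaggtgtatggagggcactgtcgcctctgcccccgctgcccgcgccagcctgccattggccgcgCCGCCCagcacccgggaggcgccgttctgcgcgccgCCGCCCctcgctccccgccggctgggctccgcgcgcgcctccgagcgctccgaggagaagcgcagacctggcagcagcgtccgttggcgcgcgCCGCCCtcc
The Syt2 and Syt10 windows each held 3 GC boxes, all on the reverse strand, and the Syt6 window held 1 GC box and 1 E-box. The Syt6 window is 236 bases long and the other two 250. Among 32851 windows of 250 bases in the same table, 32.7% held a GC box and 13.001% the E-box, and cut to 236 bases 30.8% and 12.2%. None of the 3 windows held the cAMP response element TGACGTCA (1.55% of the 250-base windows), the TATA box TATAAA (12.4%), the AP-1 site TGANTCA (6.75%) or the RE1 element of neuronal genes (0.009%). These are matches of letters and not measured binding sites.

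The members divided by how widely the neurons expressed them. Levels are given as CPM, the gene's UMIs scaled to a fixed total of UMIs of that cell type in a library, in types with at least 20 cells in that library. Syt1, Syt4, Syt5, Syt7, Syt11 and Syt13 were read in all 10 neuron subclasses, whereas Syt2, Syt6 and Syt10 each averaged 2.20 CPM or less in their lowest subclass. Syt17 averaged 10.5 CPM in L6 CT, its lowest subclass, and 135 CPM in L5 PT, its highest. CPM values compare cell types for the same gene and not genes with each other.

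**Figure D1:**
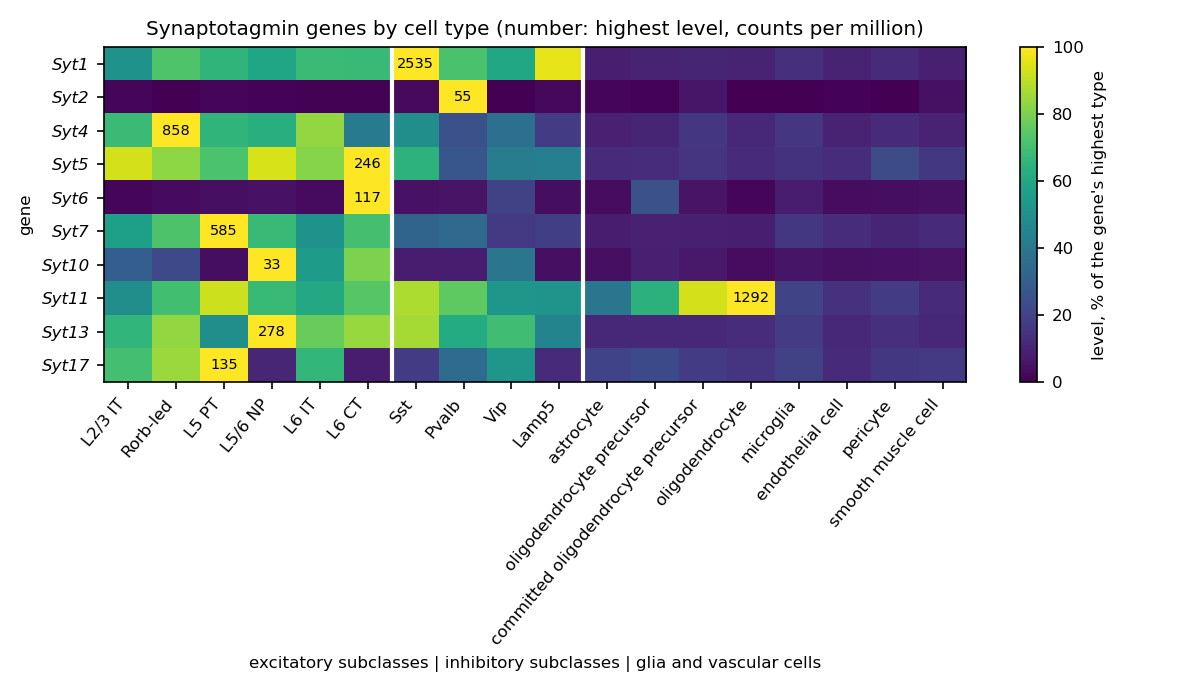
Level of each of the 10 synaptotagmin genes (rows) in neuron subclasses, glia and vascular cells (columns), as a percentage of that gene's highest type, with the highest level printed in CPM (averages of the 2 software versions). Syt2, Syt6 and Syt10 peak in Pvalb, L6 CT and L5/6 NP cells at 55.0, 117 and 32.7 CPM, and Syt11 peaks in oligodendrocytes at 1292.

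Syt1, the main fast calcium sensor of forebrain synapses, was higher in inhibitory than in excitatory neurons. In excitatory neurons its level ran from 933 to 2735 CPM with a median of 1254 over 10 libraries, and in inhibitory neurons from 1177 to 3396 with a median of 1768. Inhibitory neurons were above excitatory neurons in 10 of 10 libraries, although the ranges of the 2 classes overlap between libraries. In edgeR's quasi-likelihood test with the library as a block, the log2 fold change was 0.45 ± 0.06 (SE; adjusted p = 8.5e-07).

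Within the neurons Syt1 was highest in Sst interneurons (2535 CPM), then Lamp5 interneurons (2442), and lowest in L2/3 IT cells (1306), the superficial intratelencephalic neurons. Sst exceeded Lamp5 in 5 of 6 libraries by 36.1 ± 126 CPM (SD), so these neighbours in the order did not differ beyond their spread. L5/6 NP cells exceeded L2/3 IT cells in 7 of 8 libraries, by 182 ± 215 CPM, also within 1 SD. Not every inhibitory subclass was above the excitatory ones. Vip interneurons averaged 1515 CPM and were below L5 PT cells (1660) in 5 of 6 libraries, by 101 ± 157 CPM, within 1 SD.

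Syt2, the fast sensor of fast-spiking interneurons and of many hindbrain synapses, was read almost only in Pvalb interneurons, the fast-spiking class. In the 5 libraries with at least 20 Pvalb cells it stood at 0 and at 55.0 and 85.6 CPM in rank 1, and at 165 and 134 CPM in rank 4. The library at 0 was the one from version 3.1.0, and the other 4 came from version 4.0.0. No other neuron subclass averaged above 1.31 CPM.

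Pooled over all Pvalb cells of version 4.0.0, 131 UMIs of Syt2 were counted in 282 cells, which is 119 CPM (95% exact Poisson interval 99.3 to 141, counting error only). In version 3.1.0 there was 1 Syt2 UMI in 80 Pvalb cells, 3.01 CPM (0.076 to 16.8), and it was the single one in all 701 inhibitory neurons of that version. After thinning each cell to 1000 UMIs, 7.14% of 280 Pvalb cells of version 4.0.0 held a Syt2 UMI (exact binomial interval 4.42 to 10.8%), and unthinned 20.9%. That interval treats cells as independent and leaves out the spread between libraries. Microglia, which should lack the gene, held none in 805 thinned cells, with median depths of 1295 UMIs against 3373 in the Pvalb cells. Syt2 did not pass the low-count filter in the tests; without that filter it was 5.28 ± 0.44 log2 units higher in Pvalb than in Sst cells (edgeR, adjusted p = 6.8e-31).

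Syt6, known from the acrosome reaction of sperm, marked L6 CT cells, the corticothalamic neurons of layer 6. Its level there ran from 58.8 to 147 CPM with a median of 122 over 8 libraries. Vip interneurons followed at 22.5 CPM and were below L6 CT in 6 of 6 libraries, by 105 ± 12.5 CPM. In the other excitatory subclasses it averaged 2.20 to 5.96 CPM. Of L6 CT cells thinned to 1000 UMIs, 7.51% (version 3.1.0) and 12.7% (4.0.0) held a Syt6 UMI, and unthinned 33.6% and 31.0%; in thinned microglia these shares were 0.293% and 1.74%. Median depths were 3802 and 2700 UMIs in those L6 CT cells against 1731 and 1295 in microglia.

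Syt6 was also read in oligodendrocyte precursors, the dividing glia that give rise to myelinating cells, at 7.32 to 38.8 CPM with a median of 30.2 over 10 libraries. Astrocytes had a median of 2.05 CPM, and mature oligodendrocytes a median of 0 with a highest library of 8.9 CPM. Without the low-count filter Syt6 was 2.63 ± 0.35 log2 units lower in oligodendrocytes than in precursors (edgeR, adjusted p = 4.4e-13); with it, the gene was not tested.

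Syt10 was highest in L5/6 NP cells, the near-projecting neurons, at 0 to 74.8 CPM with a median of 29.3 over 8 libraries. L6 CT cells followed at 26.2 CPM on average and L6 IT cells at 18.1. L5 PT cells, the thick-tufted neurons that project out of the telencephalon, had a median of 0.45 CPM and a highest library of 4.36. L5/6 NP exceeded L6 CT in 5 of 7 libraries by 7.52 ± 14.5 CPM, within the spread, and by the unthinned share of cells with a UMI L6 CT was highest. Vip cells at 12.9 CPM and L2/3 IT cells at 9.73 lay between the L6 IT and L5 PT levels.

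Among excitatory subclasses Syt17 was highest where Syt10 was lowest. In L5 PT cells it ran from 99.6 to 164 CPM with a median of 140 over 10 libraries. The clusters led by Rorb, excitatory cells that scored best for layer 5 intratelencephalic markers but too low to be named, followed at 114 CPM, L2/3 IT cells at 94.5 and L6 IT cells at 89.1. In contrast it reached at most 20.6 CPM in L6 CT and 33.9 CPM in L5/6 NP, and no library of either overlapped the L5 PT range. Syt17 is an atypical member of the family found on the Golgi and on trafficking vesicles. In glia and vascular cells it averaged 6.5 to 30.2 CPM in classes other than perivascular macrophages, so its L6 CT level of 10.5 CPM was no higher than in most glia.

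**Figure D2:**
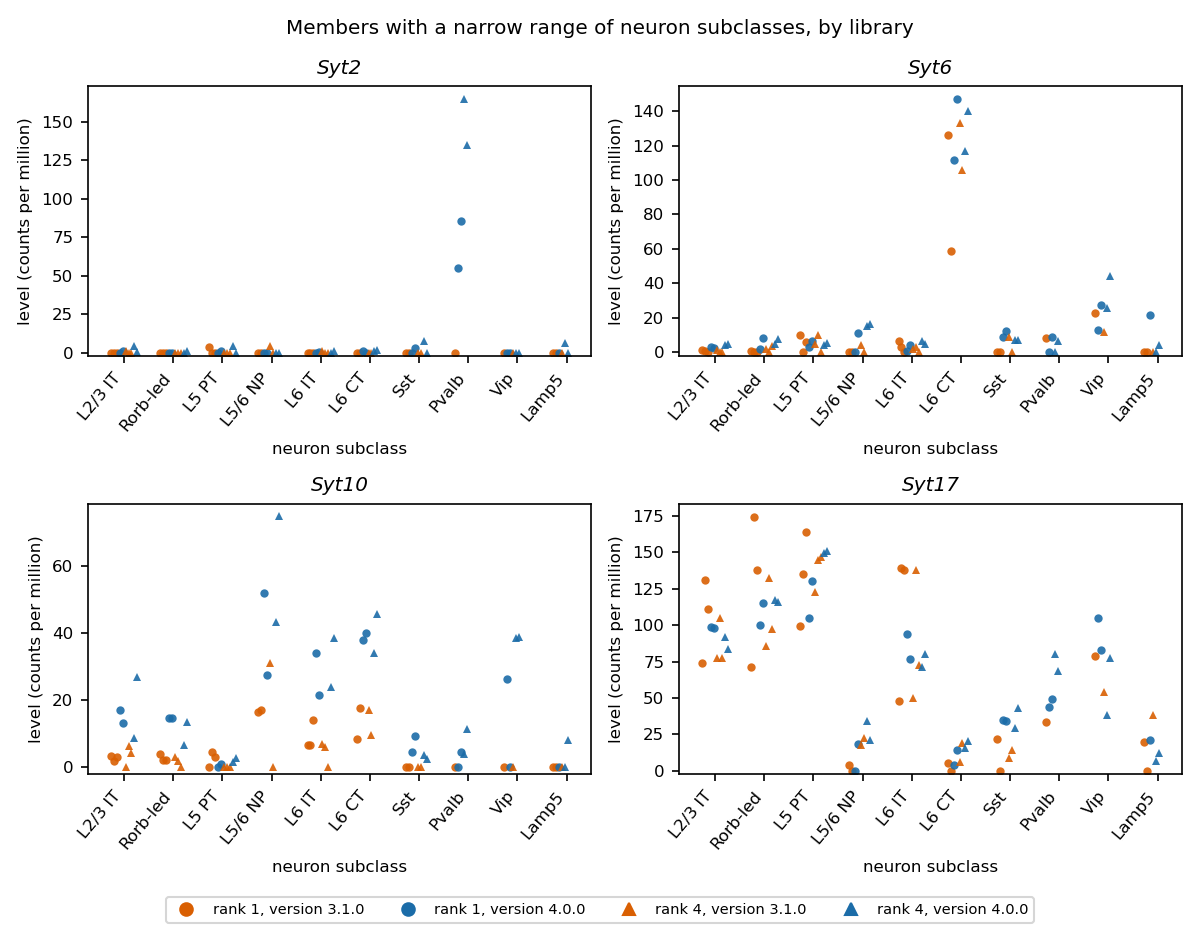
Level (CPM) of Syt2, Syt6, Syt10 and Syt17 in each neuron subclass, 1 point per library with at least 20 cells of that subclass, circles for rank 1 and triangles for rank 4, coloured by software version. Syt6 lies between 58.8 and 147 in L6 CT and Syt17 between 99.6 and 164 in L5 PT, while Syt10 stays at or below 4.36 in L5 PT.

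Syt7, the high-affinity sensor, was an excitatory gene with its peak in L5 PT cells. Its level in excitatory neurons ran from 241 to 528 CPM with a median of 354, and in inhibitory neurons from 66.4 to 265 with a median of 123. Inhibitory neurons were lower by 1.34 ± 0.09 log2 units (edgeR, adjusted p = 9.1e-13). In L5 PT cells it ran from 340 to 828 CPM with a median of 483, and exceeded the Rorb-led clusters in 10 of 10 libraries by 155 ± 74.8 CPM.

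Syt4, which sits on dense-core vesicles, was likewise lower in inhibitory neurons. It ran from 473 to 832 CPM in excitatory neurons (median 608) and from 237 to 336 in inhibitory neurons (median 281), with no overlap between the classes, and the difference was -1.03 ± 0.09 log2 units (edgeR, adjusted p = 3.2e-10). The Rorb-led clusters were highest at 858 CPM and exceeded L6 IT cells in 9 of 10 libraries. Lamp5 interneurons were lowest, at 98.5 to 197 CPM.

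Syt5, found on secretory vesicles, was highest in L6 CT at 246 CPM and lowest in Pvalb at 66.0 CPM. L6 CT and L5/6 NP, its next neighbour, differed by 22.0 ± 56.2 CPM, within the spread, whereas Vip cells exceeded Pvalb cells in 5 of 5 libraries. Its inhibitory level was 0.86 ± 0.08 log2 units below the excitatory one (edgeR, adjusted p = 7.9e-10). Syt13, an atypical member without calcium binding, averaged 126 CPM in Lamp5 cells and 278 in L5/6 NP cells, and the difference between inhibitory and excitatory neurons was -0.02 ± 0.07 log2 units (edgeR, adjusted p = 0.80).

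Across the neuron classes, 7 of the 9 members tested passed edgeR's threshold (adjusted p under 0.05) between inhibitory and excitatory neurons, 1 higher and 6 lower in inhibitory neurons. Over all 10886 genes 48.3% passed, 25.6% higher and 22.7% lower. Besides those above, Syt6, Syt10 and Syt17 were lower, by 0.95 ± 0.24, 0.98 ± 0.21 and 0.80 ± 0.17 log2 units, and Syt11 did not pass (0.09 ± 0.06, adjusted p = 0.20). Syt6 was higher in excitatory neurons in 6 of 10 libraries, and the direction differed between versions. Pooled levels were 17.3 CPM in excitatory and 19.3 in inhibitory neurons in 3.1.0, against 44.5 and 15.6 in 4.0.0. L6 CT cells, where Syt6 peaks, ran from 14 of 603 to 196 of 966 excitatory cells per library in 3.1.0. In 4.0.0 they ran from 149 of 741 to 972 of 2764, and the part of this make-up in the Syt6 direction was not tested. The Syt6 call was lost in DESeq2 (adjusted p = 0.56) and without the library block (0.30). The members' median log2 fold change was -0.86, against 0.02 over all genes. Syt2 was not tested, being below the low-count filter.

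Of 7 other synaptotagmins, 5 were tested in that contrast, with Syt3 and Syt14 higher in inhibitory neurons and Syt9, Syt12 and Syt16 lower. Of 27 genes of the vesicle fusion machinery, 10 were higher and 11 lower. Those with the smallest p were the SV2 vesicle proteins Sv2c (log2 fold change 3.34 ± 0.17) and Sv2b (-3.11 ± 0.19), the SNARE protein gene Stx1a (-1.70 ± 0.11), and Cplx1, a complexin that binds the SNARE complex (2.04 ± 0.13).

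L5 PT cells differed from L2/3 IT cells in 6 of 7 members tested, where 48.2% of 8505 genes passed, 21.7% higher and 26.5% lower. Syt11 rose by 0.81 ± 0.10 log2 units (edgeR, adjusted p = 3.9e-08), Syt7 by 0.80 ± 0.12, Syt17 by 0.42 ± 0.12 and Syt1 by 0.36 ± 0.10, while Syt13 was lower by 0.51 ± 0.11 and Syt5 by 0.46 ± 0.11. The L2/3 IT class holds a cluster of 383 cells with a median of 8603 UMIs; without it Syt7 differed by 0.48 log2 units (adjusted p = 7.5e-05), and the same 6 members passed. Syt17 lost its call under the stricter cell filter (adjusted p = 0.062). Of the 24 fusion genes tested, 12 were higher and 4 lower in L5 PT. Those with the smallest p were Syngr1 (1.23 ± 0.10), Cplx2 (-1.50 ± 0.13), Sv2b (1.03 ± 0.11) and Doc2b, another C2-domain calcium sensor (2.51 ± 0.28).

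Pvalb and Sst interneurons could be compared in 5 libraries, 4 of them from version 4.0.0, and 4 of 7 members passed against 21.6% of 4962 genes, 10.9% higher and 10.6% lower. Syt5 was lower in Pvalb by 1.28 ± 0.21 log2 units (edgeR, adjusted p = 1.5e-07) and Syt4 by 0.95 ± 0.12. Syt1 was lower by 0.32 ± 0.11 (adjusted p = 0.021) and Syt17 higher by 0.78 ± 0.29 (adjusted p = 0.034), both near the threshold. Leaving out rank 4 replicate 4 or rank 4 replicate 5 left only Syt4 and Syt5 past it, with Syt1 at adjusted p = 0.096 and 0.066 and Syt17 below the low-count filter. Syt1 also lost its call without rank 1 replicate 4 (0.096) and without the library block (0.11), and Syt17 in DESeq2 (0.31), under the stricter cell filter (0.18), without the low-count filter (0.070) and without rank 1 replicate 5 (0.055). Without rank 1 replicate 1, Syt2 and Syt7 passed as well, at log2 fold changes of 5.34 and 0.40 and adjusted p of 1.4e-20 and 0.017. Among fusion genes Cplx1 was 1.59 ± 0.11 higher and Cplx2 2.17 ± 0.15 lower in Pvalb cells.

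**Figure D3:**
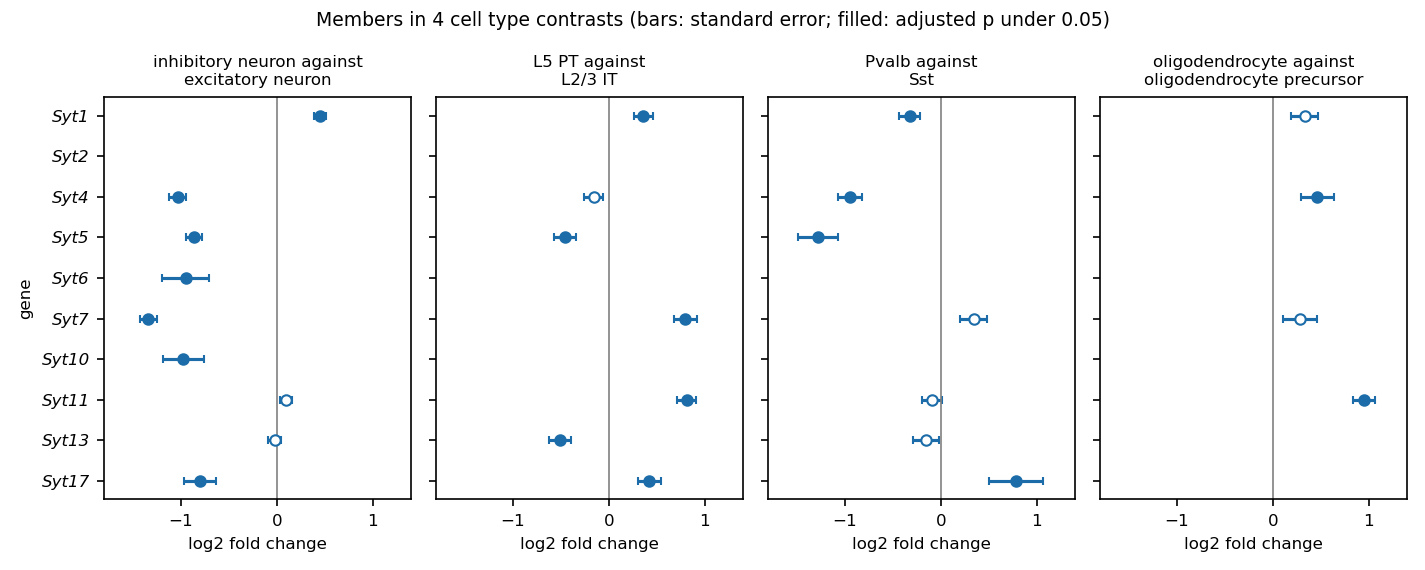
Log2 fold change with its standard error for each tested member in 4 cell type contrasts, filled where the adjusted p is under 0.05. In inhibitory against excitatory neurons Syt7 lies lowest at -1.34 and Syt1 alone is called higher at 0.45; genes without a point did not pass the low-count filter.

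Syt11 is a member that does not bind calcium and acts in endocytosis and membrane traffic. Its highest average was in a glial class, oligodendrocytes (1292 CPM), where each of the other 9 peaked in a neuron subclass. L5 PT (1192 CPM) and Sst cells (1131) were close, and were not compared with oligodendrocytes by library. Plain means of Pvalb cells, from 3 rank 1 and 2 rank 4 libraries, were 1194 and 1342 CPM, against 1182 and 1263 in oligodendrocytes. Committed precursors were below oligodendrocytes in 5 of 7 libraries, by 74.2 ± 117 CPM, within the spread. In oligodendrocytes Syt11 ran from 747 to 1802 CPM with a median of 1092 over 10 libraries, above the excitatory neurons of the same library in all 10. Relative to those neurons the median was 159% in oligodendrocytes, 144% in committed precursors (7 libraries), 106% in precursors and 62.0% in astrocytes. In microglia it was 24.8% and in endothelial cells 18.6%.

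From precursors to oligodendrocytes Syt11 was 0.95 ± 0.11 log2 units higher (edgeR, adjusted p = 8.6e-08), and 2 of 4 members tested passed, both higher, where 50.6% of 5779 genes did, 24.8% higher and 25.8% lower. The other was Syt4 (0.46 ± 0.17, adjusted p = 0.025), which stood at 0 to 170 CPM in oligodendrocytes and lost its call in DESeq2 (adjusted p = 0.16), without the library block (0.25), under a stricter cell filter (0.16) and without rank 1 replicate 1 (0.096). Of Syt11's thinned oligodendrocytes, 58.3% (3.1.0) and 77.1% (4.0.0) held a UMI, unthinned 71.8% and 80.9%. In thinned microglia the shares were 12.2% and 27.2%, with median depths of 1731 and 1295 UMIs against 1657 and 1343 in oligodendrocytes.

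Syt1 was also read in glia and vascular cells. Its median relative to excitatory neurons was 10.2% in astrocytes, 11.8% in oligodendrocytes, 13.1% in endothelial cells and 17.9% in microglia. Libraries spread widely around these medians, from 1.59 to 20.7% in astrocytes and from 2.80 to 42.6% in microglia. Over these same 4 classes the medians of Syt4, Syt5, Syt7 and Syt13 ran from 7.65 to 20.2%. How much of these levels, Syt1 included, is free RNA was not tested.

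**Figure D4:**
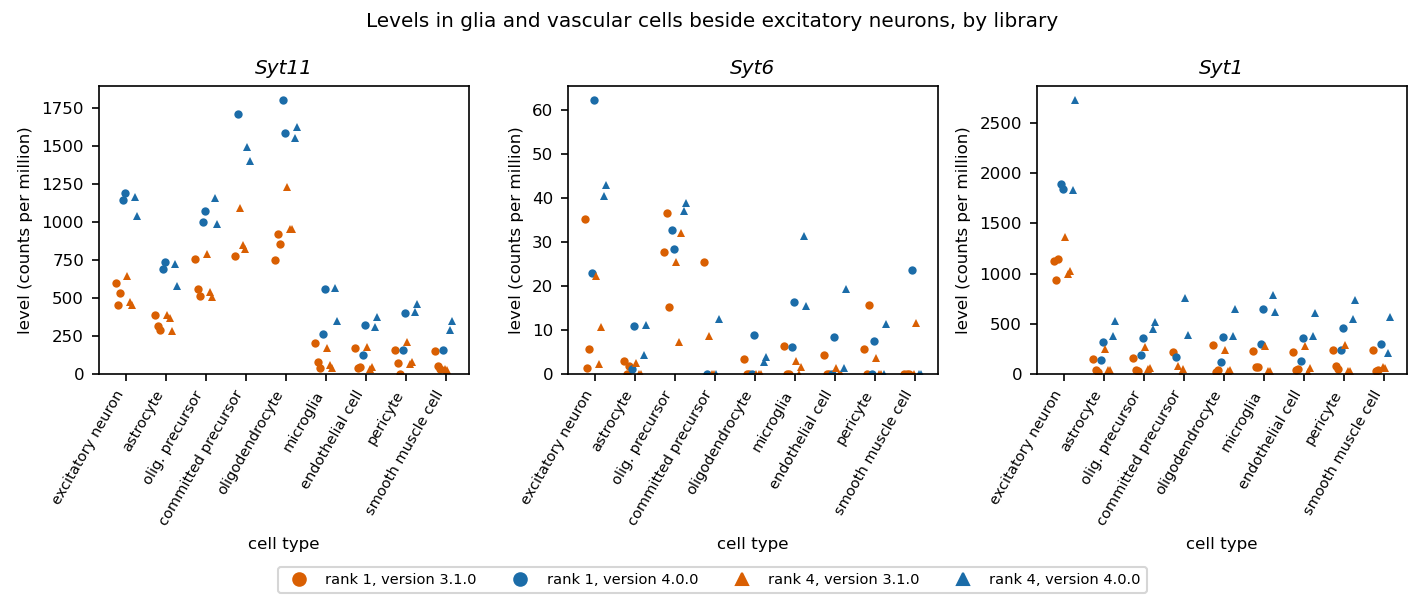
Level (CPM) of Syt11, Syt6 and Syt1 in excitatory neurons and in glia and vascular cells, 1 point per library, circles for rank 1 and triangles for rank 4, coloured by software version. Syt11 reaches 747 to 1802 in oligodendrocytes and Syt6 up to 38.8 in oligodendrocyte precursors, while the median of Syt1 in microglia is 17.9% of its excitatory level.

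The comparison the study was built on, dominant against subordinate mice, gave no call for any member in the fit without a replicate block. In 18 cell types, 114 tests of 9 members were made with the software version as a covariate, and 0 passed (edgeR, smallest adjusted p = 0.71; 1 had an unadjusted p under 0.05). Unadjusted p under 0.05 numbered 0 in DESeq2, 12 of 178 without the low-count filter, 13 of 130 in replicates 4 and 5 alone and 14 of 114 with the replicate number as a block. Over all genes and types 0.00989% of 121332 tests passed, all 12 of them in Vip interneurons. In the reported fit Syt2 was below the low-count filter in every type, and Pvalb cells, with 2 rank 4 libraries of at least 20 cells, were not tested. In replicates 4 and 5 alone, the log2 difference of Syt2, rank 1 minus rank 4, was -1.01 ± 0.33 in Pvalb cells (edgeR, adjusted p = 0.48) and -1.48 ± 0.32 in inhibitory neurons (adjusted p = 0.45). In all libraries without the filter it was -1.43 ± 0.39 in inhibitory neurons (edgeR, adjusted p = 0.20), and none of these passed.

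In excitatory neurons the log2 fold changes of rank 1 against rank 4 ran from -0.17 ± 0.15 for Syt1 to 0.18 ± 0.58 for Syt6. Syt1 was lower in rank 1 in 18 of 18 overlapping types, by log2 fold changes of -0.77 to -0.0021, none past the test. Without rank 4 replicate 1 it was lower in 10 of 16 types, with values of -0.22 to 0.56, and without rank 4 replicate 5 in 12 of 16; each other library left out gave at most 2 types with a value above 0. Syt11 was at 0.03 ± 0.14 in excitatory neurons and Syt13 at -0.04 ± 0.12. In inhibitory neurons they ran from -0.31 ± 0.22 for Syt7 to 0.24 ± 0.28 for Syt17. Data were simulated with these libraries' depths, the same fixed spread for every gene, and no version or replicate effect. On these data the same fit recovered 30% of changes of 2-fold and 97% of 4-fold in excitatory neurons. It thus missed most simulated 2-fold changes, and recovery at the measured spread was not tested.

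The single unadjusted p under 0.05 in that fit was Syt17 in L6 CT, where it is lowest among excitatory subclasses. Its rank 1 libraries stood at 5.01, 0, 4.30 and 13.9 CPM and its rank 4 libraries at 5.67, 19.2, 15.6 and 20.6 CPM. The ranks overlapped, and rank 1 was lower in all numbered pairs. The difference was -0.77 ± 0.35 log2 units (edgeR, unadjusted p = 0.039, adjusted p = 1.0). In Vip interneurons, where no member passed, Syt17 went the other way. Its plain means there were 89.1 ± 13.9 CPM in rank 1 and 56.6 ± 19.6 (SD) in rank 4, over 3 libraries each. Rank 1 was higher in 3 of 3 numbered pairs.

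Libraries with the same replicate number deviated together, although not every library was closest to its own number. The version that such libraries share entered these deviations. With that number as a block 2 of the 114 tests passed, where 0.281% of all tests did. Both were Syt1 in glia. In astrocytes the rank 1 libraries stood at 151, 33.4, 18.3, 135 and 318 CPM and the rank 4 libraries at 245, 34.7, 34.7, 380 and 531, so that rank 1 was lower in 5 of 5 pairs. The blocked difference was -0.88 ± 0.14 log2 units (edgeR, adjusted p = 0.0011) in a fit that called 0.338% of 10659 genes, 0.281% lower. In oligodendrocyte precursors it was -0.80 ± 0.15 (adjusted p = 0.017), where 0.0676% of 7393 genes passed, all lower.

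Without the block these were -0.77 ± 0.56 and -0.75 ± 0.45, with adjusted p of 1.0 in both, and leaving out rank 4 replicate 1 from that fit took them to -0.05 and -0.13. With the block, 3 of 25 fusion genes in astrocytes were also lower in rank 1 and 0 higher (Syn1, Cplx2 and Unc13a). Of these 25, 19 had an unadjusted p under 0.05, and the median was -0.38 against -0.01 over all genes. In oligodendrocyte precursors 0 of 23 passed (7 at an unadjusted p under 0.05), with a median of -0.25. Unadjusted p under 0.05 (edgeR) numbered 15 of 24 in endothelial cells, where Syngr1 passed as lower, 9 of 16 in pericytes and 0 of 20 in microglia. Excitatory and inhibitory neurons made up 24.5 to 43.9% of the kept cells in rank 1 libraries and 19.3 to 54.1% in rank 4 libraries. The part of free neuronal RNA in the Syt1 difference was not tested.

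**Figure D5:**
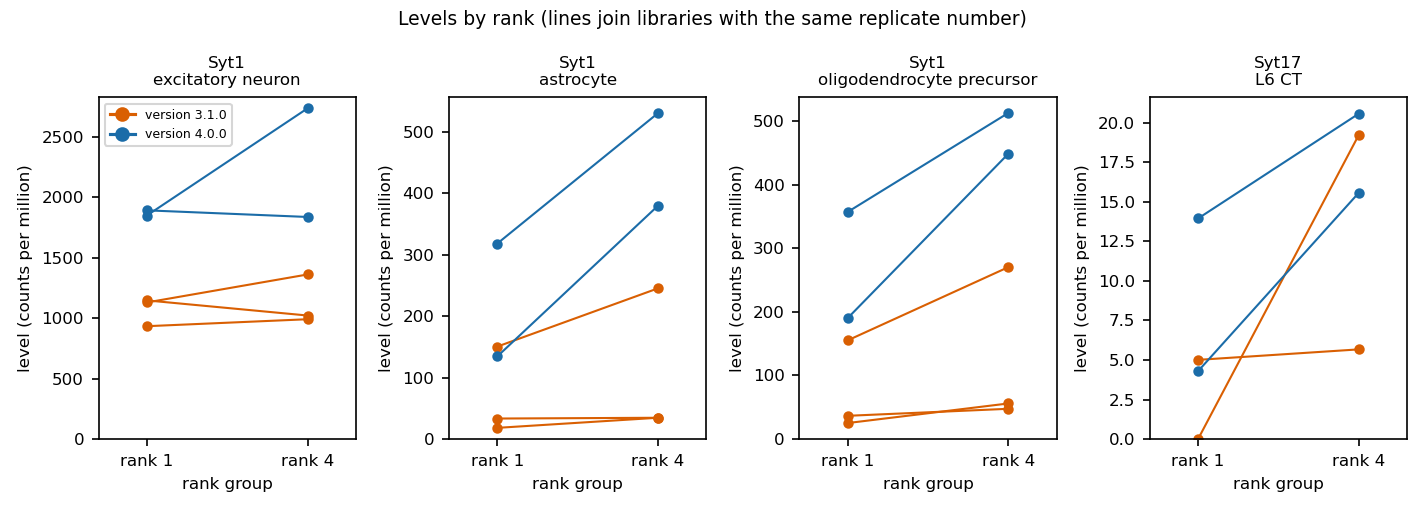
Level (CPM) in rank 1 and rank 4 libraries of Syt1 in excitatory neurons, astrocytes and oligodendrocyte precursors and of Syt17 in L6 CT, with lines joining libraries of the same replicate number and colours for software version. Syt1 is higher in rank 4 than in rank 1 in 5 of 5 pairs in both glial types and in 3 of 5 pairs in excitatory neurons.

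Whether rank acted differently in excitatory and inhibitory neurons was tested for each of the 10 members with a two-sided exact permutation test on log2(CPM + 1), excitatory minus inhibitory, over 10 libraries. Syt5 had an unadjusted p of 0.040, with a difference of 1.07 in rank 1 and 0.69 in rank 4, and for the other 9 members p ran from 0.13 to 0.87. Within version 3.1.0 the Syt5 difference between ranks was 0.35 (exact p = 0.30) and within 4.0.0 it was 0.42 (exact p = 0.33, the smallest that 2 against 2 allows). That test ignores the replicate numbers. In a test added after the data were seen, with libraries paired by replicate number, the Syt5 difference was higher in rank 1 in 4 of 5 pairs, and exact sign flips over the pairs gave p = 0.125, where 5 pairs cannot go below 0.0625. In the unpaired test, leaving out any single library other than rank 1 replicate 1 took the number of members with p under 0.05 to 0.

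Members also differed between the libraries of the 2 software versions. In excitatory neurons 7 of 9 members tested differed between versions 4.0.0 and 3.1.0, where 52.4% of 12339 genes did, 25.0% higher and 27.5% lower (a comparison added after the data were seen). Syt10 was higher in 4.0.0 by 2.19 ± 0.22 log2 units (edgeR, adjusted p = 2.1e-05), Syt11 by 1.08 ± 0.14, Syt1 by 0.88 ± 0.16 and Syt7 by 0.68 ± 0.14. Syt5 was lower by 0.70 ± 0.12, and its 4 libraries of 4.0.0, at 157 to 174 CPM, all lay below the 6 of 3.1.0, at 210 to 291. Syt6 (1.52 ± 0.57) and Syt13 (0.31 ± 0.12) were also higher, and Syt4 and Syt17 did not pass (-0.33 ± 0.17 and -0.38 ± 0.27). The make-up of the class differed as well: L6 CT cells, where Syt6 peaks, ran from 14 of 603 to 196 of 966 excitatory cells per library in 3.1.0. In 4.0.0 they ran from 149 of 741 to 972 of 2764. Within L6 CT cells Syt10, Syt5, Syt11 and Syt1 passed between versions, and Syt6 did not. The part of this make-up in the Syt6 difference was not tested. In inhibitory neurons 5 of 8 members passed, 4 higher and Syt5 lower, against 36.7% of 9117 genes, 16.4% higher and 20.3% lower.

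Over 22 classes and subclasses, with subclasses nested in their class, the genes whose log2(CPM + 1) pattern was most like a member's were listed by Pearson's r, as a description. For Syt1 these were Grin1 (0.99), Sptbn4 and Kif5c, and for Syt13 Grin2b and Syp (0.98 each). For Syt2 they were Flt3 (0.86), Mme and Tac1, for Syt6 Thsd7b (0.81), AC101921.1 and Rprm, and for Syt10 Slit1 (0.94), Kcnv1 and Lrrc55. Tac1 and Rprm are also among the markers from which the Pvalb and L6 CT clusters were named. For Syt17 they were Dyrk3 and Ntng1 (0.92 each) and Prdm8, and for Syt11 Mapt (0.97), Lrrc4b and Magi2. For Syt4 Sult4a1 (0.95), for Syt5 Gap43 (0.96) and for Syt7 Pgm2l1 (0.98) were among the 3 listed.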

How the data were processed

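The data are 10x Genomics single-cell libraries of mouse medial prefrontal cortex, 5 of rank 1 and 5 of rank 4. The authors deposited raw UMI counts per gene and barcode; the file headers name Cell Ranger 3.1.0 for replicates 1 to 3 and 4.0.0 for replicates 4 and 5 of each rank, whereas the submitters' processing notes name 4.0.0 and mm10 alone. The sources used here do not give whether counting used strand; Syt1, Syt2, Syt4, Syt6 and Syt7 overlap genes annotated on the opposite strand (Syt2 overlaps Ppp1r12b), and without strand such reads could not be told apart.

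From these counts, barcodes with at least 500 genes, at most 15% mitochondrial counts and no doublet call (Scrublet, in scanpy 1.11.5) were kept, 45864 of 64937; 3915 were called doublets. In 1 library the caller marked 0.0326% of 6126 barcodes and was taken as failed; 0.238, the median of the thresholds elsewhere, replaced its own. Cells were clustered (Leiden, resolution 1) without any synaptotagmin or fusion gene, and clusters were named from marker lists. The Rorb-led group was formed after the data were seen; L6 IT and L6 CT each hold a cluster led by immediate early genes, and 6217 excitatory cells in 4 clusters, the Rorb-led ones included, got no name from the markers.

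Counts were summed per library and type (at least 20 cells) and tested over all genes passing edgeR's filterByExpr with edgeR 4.0.16 (quasi-likelihood, TMM, Benjamini-Hochberg), with software version as covariate for rank and library as block for cell type contrasts; DESeq2 1.42.0 was an alternative. The labels call the pooled libraries independent biological replicates; p-values measure the spread between these pools, not between mice. On simulated data the contrast fit recovered 59% of 2-fold and 92% of 4-fold changes. Deviations of same-numbered libraries from their rank's mean, over 4234 genes in excitatory neurons, correlated at 0.80 to 0.94 in all 5 pairs (0.22 to 0.87 after removing version means), and the own number gave the highest correlation in 3 of 5 pairs there and 2 of 5 in astrocytes. All correlations exceeded 0.1, the level set for pairing, so blocked values are given where they change a call. Before version means were removed, the difference between versions entered these correlations. After that step replicates 4 and 5, the only libraries of 4.0.0 in each rank, give the same value by construction. The check therefore cannot show that a shared number marks a true pair. Members and lists were chosen with earlier results of these data known; of the list genes past the threshold, at most the 5 with the smallest p per comparison could be named. Promoter windows are printed for Syt2, Syt6 and Syt10; that of Syt1 held none of the motifs searched, that of Syt11 lay inside an annotated exon, and Syt4, Syt5, Syt7, Syt13 and Syt17 are named only. Depth ranged from 4442750 to 29278466 UMIs per library.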

Additional observations from a re-analysis of the deposited data

Results flagged for a closer look

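The following 3 results stood apart. Syt13 in L5/6 NP cells had rank 1 replicate 1 as its lowest library, at 148 CPM, with a gap to the next of 0.854 of the group's range. Syt17 in L5 PT cells had rank 4 replicate 1 lowest, at 123 CPM, with a gap of 0.768 of the range. These were 2 of 58 groups of libraries examined, and chance flags about 1 in 20 such groups. The rank difference of Syt5 in excitatory minus inhibitory neurons was 0.374 on the log2 scale (exact permutation p = 0.040, unadjusted over 10 members; 0.125 with libraries paired by replicate number).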

How the results depend on the processing

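Tests of members between ranks past the threshold numbered 0 in the reported fit and under every other setting run, except the replicate block, which pairs libraries by number and gave 2; the block changed no other call of a member in these tests. With leave-one-out the count in Pvalb against Sst ran from 2 to 6; at least 50 cells left no Pvalb contrast. In oligodendrocytes against precursors the count was 2, and became 1 in DESeq2, 1 without the library block, 1 under the stricter cell filter, 4 without the low-count filter and 5 with at least 50 cells, and 1 to 4 with leave-one-out. For the rank difference between neuron classes, 1 member had p under 0.05, leave-one-out gave 0 to 2, and the replicate block, chosen after seeing the data, gave 0, since 5 pairs cannot reach p under 0.05. Of 30 gene pairs most like a member, 6 were kept with Spearman's rho and 18 with log2(CPM + 10).

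Some uncalled differences changed sign. Syt11 between neuron classes was -0.034 without the low-count filter. Between ranks, Syt11 in inhibitory neurons was 0.042 without the covariate, 0.013 with the replicate block and 0.14 in replicates 4 and 5. Syt17 was -0.0018 with the replicate block and -0.11 in replicates 4 and 5 (excitatory), and -0.14 in the latter (inhibitory). Syt4 was -0.066 in replicates 1 to 3 and -0.0088 under the stricter filter (excitatory), and 0.050 in replicates 1 to 3 (inhibitory). Syt6 was 0.051 with at least 50 cells and 0.041 in replicates 4 and 5 (L6 CT), and -0.0085 with at least 50 cells (inhibitory). Syt7 in excitatory neurons was 0.0063 in DESeq2, 0.0060 with the replicate block, 0.036 in replicates 1 to 3 and 0.042 under the stricter filter. With leave-one-out, log2 differences between ranks that changed sign ran, by member and neuron class, as follows: Syt1 (inhibitory) -0.12 to 0.064, Syt10 (excitatory) -0.14 to 0.13, Syt11 (excitatory) -0.023 to 0.13, Syt11 (inhibitory) -0.050 to 0.0998, Syt13 (excitatory) -0.091 to 0.013, Syt13 (inhibitory) -0.12 to 0.038, Syt17 (excitatory) -0.12 to 0.23, Syt17 (inhibitory) -0.096 to 0.401, Syt4 (excitatory) -0.092 to 0.12, Syt4 (inhibitory) -0.17 to 0.0042, Syt6 (L6 CT) -0.19 to 0.052, Syt6 (excitatory) -0.49 to 0.49, Syt6 (inhibitory) -0.32 to 0.55, Syt7 (excitatory) -0.067 to 0.11.

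Among neuron subclasses, the one with the highest level changed for Syt5 when levels were means over cells, and for Syt1, Syt11 and Syt13 under the stricter cell filter. By share of cells with a UMI, also among neuron subclasses, it changed from the thinned order for Syt10 (L5/6 NP to L6 CT), Syt11 and Syt13 (both to Sst) without thinning, and for Syt5 and Syt13 when thinned to 2000 UMIs. The causes of these changes were not tested. Depth limits Syt2, with 0 to 94 UMIs in the kept cells of a library, and Syt6 and Syt10 in the shallower libraries, down to 8 UMIs each.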
